A study of Macaca mulatta with 33 samples.

Results

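The livers of 7 macaque offspring that had met a western-style diet (WSD) both through the mother and after weaning were compared with the livers of 10 offspring of western-fed mothers that were weaned to a control diet (CD). The libraries were taken by their labels, WSD/WSD and WSD/CD, in which the first diet is the mother's during pregnancy and nursing and the second is the offspring's own after weaning. These 17 libraries are part of a set of 33, and each came from 1 animal sampled at 3 years of age. Both groups thus share the maternal western diet, and the comparison asks what the diet after weaning changed in offspring with that background. Offspring of control-fed mothers, 6 CD/WSD and 10 CD/CD animals, enter only the last comparison. The organism is labelled Macaca mulatta, the rhesus macaque, but the design text calls the animals Japanese macaques. The labels used here give neither sex, relatedness nor collection date, so the p-values take the animals as independent.

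The liver turns surplus sugar into glycogen and into fatty acids, exports lipid in lipoproteins and disposes of cholesterol by making bile acids from it. Insulin drives the first of these routes through the protein phosphatase subunits that switch on glycogen synthase and the transcription factor SREBP-1c, which turns on the enzymes of lipid synthesis. Diets rich in fat, cholesterol and sugar are known to load hepatocytes with triglyceride, and the endoplasmic reticulum, where secreted proteins and lipoproteins are made, is one of the compartments that such loading taxes.

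Gene levels are given as FPKM, fragments per kilobase of transcript relative to a library's mapped fragments, and differences as WSD/WSD minus WSD/CD on the log2(FPKM + 1) scale, which understates the change of low genes. A gene was called when its adjusted p in limma was under 0.05. Transcripts that mark hepatocytes, such as APOB, AHSG and HNF4A, were abundant in all libraries: the summed level of the hepatocyte list ran between 26769 and 39412 FPKM in WSD/WSD livers, against 11621 to 38501 FPKM in WSD/CD livers. ALB, a member of that list, was missing in 15 of the 17 libraries and counted as 0 there, so these sums are not fully alike across libraries. Of 10 pancreas and gut markers, 6 were at 0 in all 17 libraries (INS, GCG, PRSS1, CPA1, PNLIP and FABP2). Markers of red blood cells summed to at most 4.64 FPKM.

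The libraries of the WSD/WSD group lay close together and those of the WSD/CD group did not. Mitochondrially encoded genes, 13 in all, took 1.34% to 2.64% of the summed FPKM in the 7 WSD/WSD livers (median 1.74%), against 1.43% to 16.1% in the 10 WSD/CD livers (median 6.0%). Missing values, such as ALB in 15 of the 17 libraries, were left out of the summed FPKM, so shares are not fully alike across libraries. The highest shares were those of WSD/CD replicates 6, 7 and 9, at 15.8%, 11.5% and 16.1%, while WSD/CD replicates 4, 5 and 8 had 1.43%, 1.95% and 1.98%, inside or at the edge of the WSD/WSD range. The mean share was 1.82% in WSD/WSD livers and 7.13% in WSD/CD livers, a difference of -5.31 percentage points (two-sided exact permutation test, p = 0.00658). The first principal component, with 50.3% of the variance, set the same WSD/CD replicates 4, 5 and 8 beside the WSD/WSD libraries and placed replicates 6, 7 and 9 at the far end. The titles and column headers carry animal numbers, whose meaning is not given. The numbers begin with 30 for 5 and with 31 for 2 of the WSD/WSD animals, and with 30 for 2, 33 for 3 and 34 for 5 of the WSD/CD animals. Number series and diet can therefore be told apart only within series 30. Even there the WSD/WSD animals have the lower numbers (30155 to 30399) and the 2 WSD/CD animals the higher (30638 and 30734). Number order and diet thus still go together in series 30. In that series the share was 1.34% to 1.98% in 5 WSD/WSD livers, against 2.95% and 6.94% in 2 WSD/CD livers, a difference of -3.29 points (exact permutation p = 0.0952, the smallest this design can give). Without the 5 WSD/CD animals numbered above 34000 it was -1.85 points (exact permutation p = 0.0631). Those 5 are WSD/CD replicates 6 to 10, so leaving them out removes the highest shares (replicates 6, 7 and 9) and also replicate 8. WSD/CD replicates 1 and 2 are of series 30 and replicates 3 to 5 of series 33. A bulk library cannot tell fewer cells of a type from less of its RNA per cell.

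**Figure D1:**
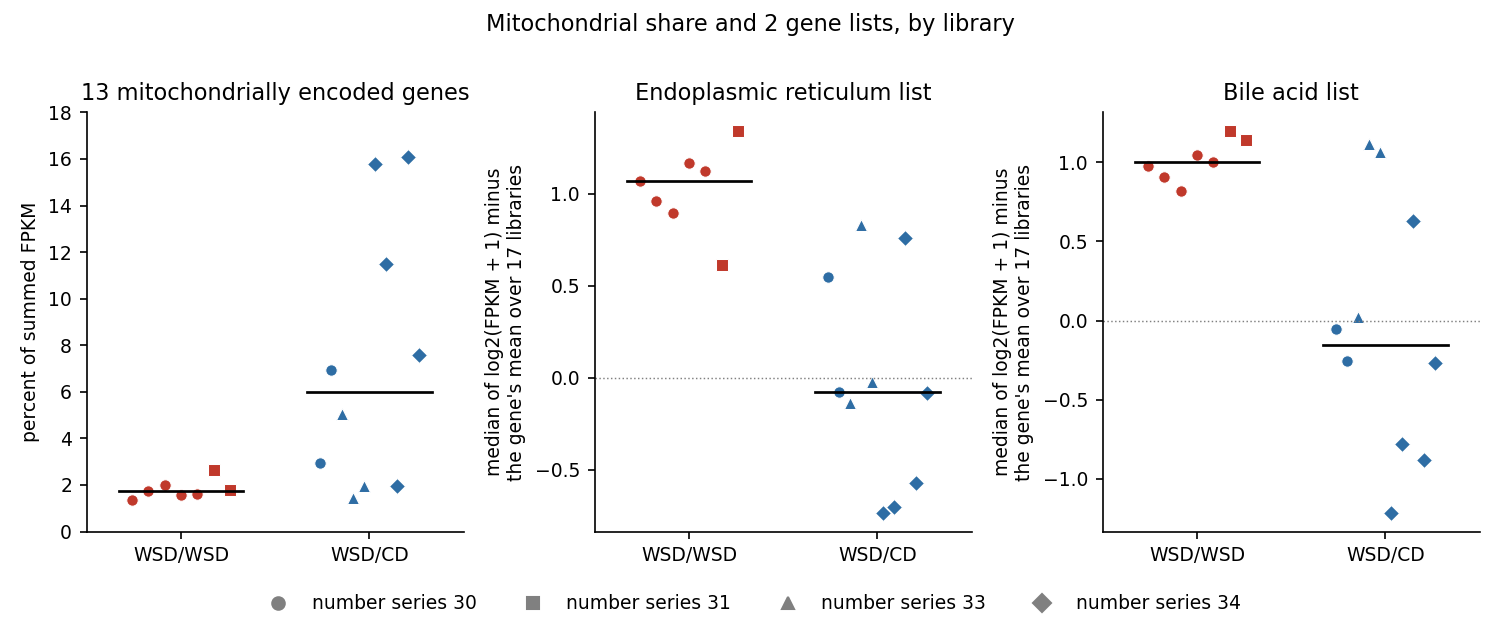
Share of summed FPKM from 13 mitochondrially encoded genes (left, percent), and the median level of the endoplasmic reticulum (middle) and bile acid (right) gene lists, for WSD/WSD (red) and WSD/CD (blue) livers. List levels are log2(FPKM + 1) minus each gene's mean over the WSD/CD libraries, not over 17 libraries as the axis labels say. Each point is 1 library, its shape gives the number series and the line is the group median; WSD/WSD shares stay between 1.34% and 2.64% while WSD/CD shares reach 16.1%.

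Of 12523 genes tested, 3863 were higher (30.8%) and 612 lower (4.89%) in WSD/WSD than in WSD/CD livers, 4475 or 35.7% in all. The median difference over all tested genes was 0.26, and how the calls split into higher and lower depended on the scale. After median-of-ratios scaling, which centres the genes by construction, the median was -0.02 and the split was 1886 higher (15.1%) and 1744 lower (13.9%). All 612 genes called lower and 1886 of the 3863 called higher were called the same way on that scale. Because the scaling lowered most differences, calls of lower genes could hardly be lost there, and their staying called is no separate support. Within series 30, 3040 genes were higher (24.3%) and 992 lower (7.92%), 32.2% in all, and 2595 of the higher and 365 of the lower calls were made there too. Without the 5 WSD/CD animals numbered above 34000, only 2 genes were called (0.016%), although 3473 had an unadjusted p under 0.05 and 977 an adjusted p under 0.1. The median difference of the genes called higher was then 0.52, against 0.72 with all animals and 0.83 within series 30, and all 4475 called genes kept their direction. With the mitochondrial share as a covariate 7 genes were called, again with every one of the 4475 keeping its direction. The values below are those of all 17 animals, and of the 128 genes picked by the naming rule that passed there, none passed without the animals above 34000 while all 128 kept their direction. Each of these fits reuses libraries in which the genes were picked, so kept directions are no separate support. List counts below are to be read beside the shares of all genes, 30.8% higher and 4.89% lower, or 15.1% and 13.9% after scaling. Counts within series 30 belong beside 24.3% higher and 7.92% lower. Those without series 31 belong beside 3844 higher and 422 lower of 12523 genes.

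SCG3 was 1 of the 2 genes called without the animals above 34000, and it is named here because of that result. SCG3, a granin of secretory granules, had 0.921 to 2.50 FPKM (median 1.43) in WSD/WSD livers, against 0 to 0.388 FPKM (median 0.121) in WSD/CD livers. The groups did not overlap, and the difference was 1.14 ± 0.12 (SE, adjusted p = 0.000142) with all animals and 1.01 (adjusted p = 0.0435) without those above 34000. Genes without overlap between the groups were few, 65 higher (0.519%) and 5 lower (0.0399%). Because they are so few, the 5 are named after their values were seen. They were RHBG, an ammonium transporter, ANKZF1, a factor of ribosome quality control, NFKBIL1, the secreted phosphoprotein SPP1 and the ciliary transport gene IFT140. RHBG had at most 0.567 FPKM in WSD/WSD livers and at least 0.738 FPKM in WSD/CD livers, and its difference was -0.85 ± 0.14 (adjusted p = 0.00468).

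The largest increase was that of PPP1R3B, the liver's glycogen-targeting subunit of protein phosphatase 1, which activates glycogen synthase. It had 9.05 to 97.7 FPKM (median 20.2) in WSD/WSD livers, against 0.392 to 33.2 FPKM (median 0.964) in WSD/CD livers. All 7 WSD/WSD livers lay above 9 of the 10 WSD/CD livers, and the remaining liver, WSD/CD replicate 4, lay within the WSD/WSD range. The difference was 2.98 ± 0.63 (adjusted p = 0.00521), and it was 4.0 within series 30 and 2.65 without the animals above 34000 (adjusted p = 0.0958). SCD, the desaturase that makes monounsaturated fatty acids, had 67.3 to 297 FPKM (median 185) in WSD/WSD livers, against 4.71 to 298 FPKM (median 23.4) in WSD/CD livers. WSD/CD replicates 3 and 4 lay within the WSD/WSD range and replicate 5 at its top, and the difference was 2.54 ± 0.69 (adjusted p = 0.0115). It was 1.17 without the animals above 34000 (adjusted p = 0.227), the largest loss among the 12 largest increases.

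LIPG, a secreted phospholipase that acts on HDL, rose by 2.21 ± 0.45 (adjusted p = 0.00503) with 2.12 to 50.9 FPKM in WSD/WSD livers, against 0.533 to 9.19 FPKM in WSD/CD livers. LPGAT1, an acyltransferase of phospholipid synthesis, rose by 2.15, and ELOVL2, which elongates polyunsaturated fatty acids, rose by 2.08. CYP8B1, the sterol 12-alpha-hydroxylase that sets the share of cholic acid among bile acids, had 78.7 to 262 FPKM (median 129) in WSD/WSD livers, against 8.98 to 145 FPKM (median 22.8) in WSD/CD livers. Its groups overlapped through WSD/CD replicates 4, 5 and 8, and its difference was 2.12 ± 0.58 (adjusted p = 0.0116). The other increases were the protease inhibitor of coagulation SERPINA10 (2.49), the endosomal metalloreductase STEAP3 (2.17), the proprotein convertase PCSK6 (2.12), the monocarboxylate carrier SLC16A12 (2.09), NREP (2.07) and the folliculin partner FNIP2 (2.06). All 12 were called within series 30 and after median-of-ratios scaling.

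**Figure D2:**
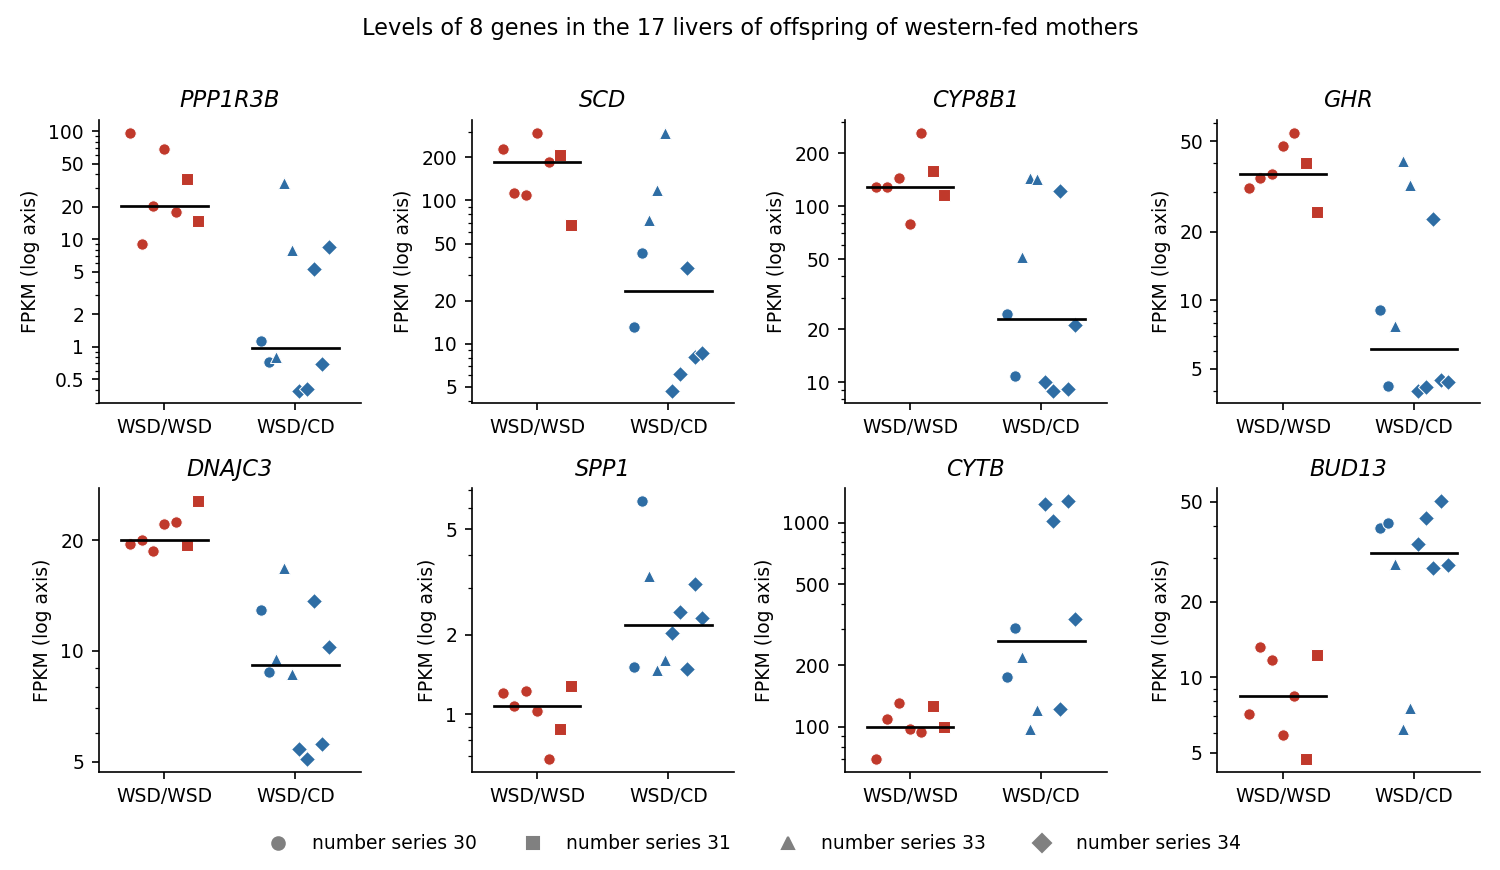
FPKM (log axis) of 8 genes in WSD/WSD (red) and WSD/CD (blue) livers, 1 point per library, with point shapes for the number series and a line at the group median. DNAJC3 and SPP1 do not overlap between the groups, while in PPP1R3B, SCD, CYP8B1, GHR, CYTB and BUD13 some WSD/CD livers lie among the WSD/WSD ones.

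Mitochondrially encoded subunits of the respiratory chain made up 5 of the 12 largest decreases: CYTB of complex III, ND6, ND1 and ND2 of complex I, and COX3 of complex IV. CYTB had 69.4 to 131 FPKM (median 99.6) in WSD/WSD livers, against 97.4 to 1274 FPKM (median 262) in WSD/CD livers. The 3 highest livers were WSD/CD replicates 6, 7 and 9, and replicates 4, 5 and 8 lay within the WSD/WSD range. The difference was -1.61 ± 0.50 (adjusted p = 0.0207), it was -0.72 without the animals above 34000 (adjusted p = 0.118) and -1.22 within series 30 (adjusted p = 0.0165). Of 12 mitochondrially encoded genes tested, 7 fell and none rose, with a list median of -1.10. After scaling, which lowers most differences, 7 fell and none rose.

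The other 7 of the largest decreases were nuclear genes. BUD13, a splicing factor of the RES complex, had 4.71 to 13.3 FPKM (median 8.44) in WSD/WSD livers, against 6.19 to 50.3 FPKM (median 31.2) in WSD/CD livers. WSD/CD replicates 4 and 5 fell inside the WSD/WSD range and the other 8 lay above it. Its difference was -1.50 ± 0.37 (adjusted p = 0.00801). ANKRD24 fell by 1.51, the zinc finger genes ZNF222 and ZNF114 fell by 1.47 and 1.38, CCER2 fell by 1.35, and the secreted semaphorin SEMA3B fell by 1.24. MT1E, a metallothionein that binds zinc and copper, fell by 1.35 with wide spread: its levels were 5.37 to 85.5 FPKM in WSD/WSD livers, against 24.1 to 129 FPKM in WSD/CD livers. Metallothionein genes have close copies, so reads of MT1E may be split among them. All 12 decreases were called after scaling, which lowers most differences and so could hardly undo them. Within series 30, 9 were called, and ND6, ND2 and MT1E were not.

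**Figure D3:**
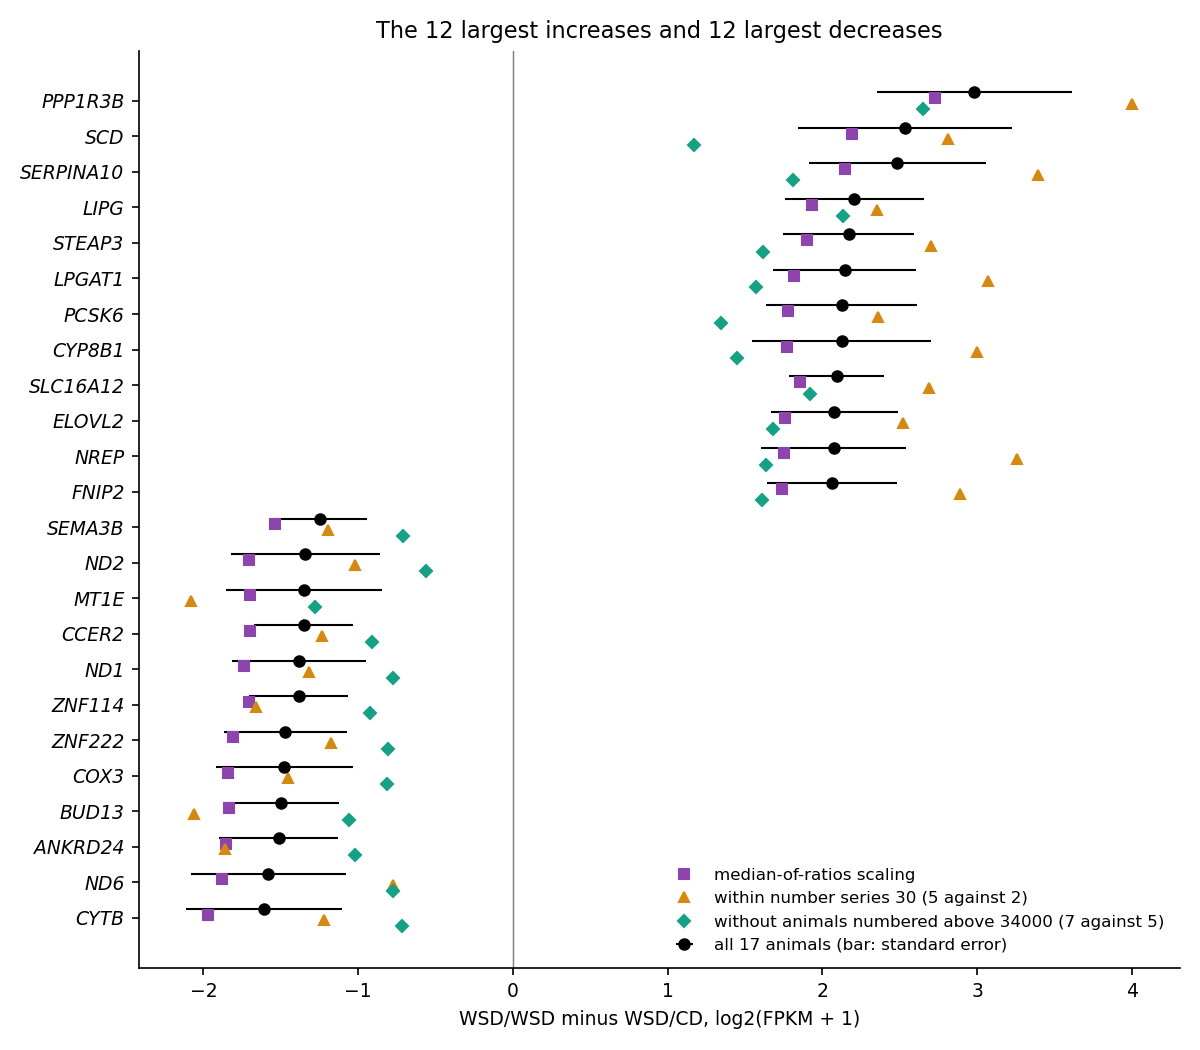
WSD/WSD minus WSD/CD on the log2(FPKM + 1) scale for the 12 largest increases and 12 largest decreases, with all 17 animals (black, bar: standard error), after median-of-ratios scaling (purple), within number series 30 (orange) and without animals numbered above 34000 (green). Each gene keeps its side of 0 in the 4 fits; SCD moves between 2.54 and 1.17 when the animals above 34000 are left out.

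Genes of lipid synthesis were mostly higher in WSD/WSD livers. Of 20 tested, 12 rose and 1 fell, with a median of 0.89 against 0.26 for all genes, and after median-of-ratios scaling 8 rose and 2 fell. SREBF1, which encodes SREBP-1c, had 6.56 to 28.2 FPKM (median 11.01) in WSD/WSD livers, against 2.99 to 7.90 FPKM (median 4.23) in WSD/CD livers. Of the WSD/CD livers, replicate 4 alone reached into the WSD/WSD range, and SREBF1 rose by 1.38 ± 0.26 (adjusted p = 0.00503). Its difference was 1.27 within series 30 and did not pass there (adjusted p = 0.0902). FADS1, the delta-5 desaturase, rose by 1.14, and ACACB, the acetyl-CoA carboxylase that limits entry of fatty acids into mitochondria, rose by 1.01. FASN (1.16), ELOVL6 (1.42) and GPAM (1.55), of fatty acid synthesis, elongation and glycerolipid assembly, rose as well. ACSS2, which makes acetyl-CoA from acetate, fell by 0.86 (adjusted p = 0.0459). Within series 30, 6 rose, 0 fell and the median was 0.77; without the animals above 34000 the median was 0.54 and no member passed.

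Cholesterol synthesis had a smaller share of calls than all genes: 3 of 21 members rose, 0 fell, and the median of 0.23 turned to -0.10 after scaling. Among the 3 were STARD4, a sterol carrier (adjusted p = 0.00513), and SREBF2, the master regulator of the pathway (1.16), both called after scaling too. Lipid droplet genes included CD36, the fatty acid uptake receptor, with 90.7 to 127 FPKM in WSD/WSD livers, against 16.8 to 127 FPKM in WSD/CD livers, and a rise of 1.33 (adjusted p = 0.00929). HSD17B13, a droplet protein linked to fatty liver disease in humans, rose by 1.63, and ABHD5, the activator of adipose triglyceride lipase, by 0.60. These were the 3 of 14 members that rose, a smaller share than the 30.8% of all genes, and 0 fell (median 0.53). After scaling 2 rose and 1 fell, beside 15.1% and 13.9% of all genes, and ABHD5 was not called. Within series 30 ABHD5 differed by 0.12 (adjusted p = 0.646) and HSD17B13 by 1.01 (adjusted p = 0.0333).

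Fatty acid oxidation moved in the same direction as synthesis. Of 22 members, 10 rose and 0 fell (median 0.59), and after scaling 5 rose and 1 fell. BDH1, which interconverts the ketone bodies, had 31.9 to 94.3 FPKM (median 51.3) in WSD/WSD livers, against 13.5 to 54.3 FPKM (median 25.1) in WSD/CD livers. WSD/CD replicates 3, 4 and 8 lay within the WSD/WSD range, and BDH1 rose by 0.99 ± 0.27 (adjusted p = 0.0115). PPARA, the nuclear receptor that turns on genes of fatty acid oxidation, rose too (adjusted p = 0.0151). CPT1A, the gate of mitochondrial uptake, had a difference of -0.02 and did not pass. Within series 30, 4 rose and 0 fell.

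Glucose and glycogen genes had 12 of 22 members higher and 0 lower (median 0.79), and after scaling 8 rose and 1 fell. Beside PPP1R3B, the liver pyruvate kinase PKLR had 21.9 to 40.7 FPKM (median 28.7) in WSD/WSD livers, against 2.96 to 32.3 FPKM (median 5.86) in WSD/CD livers. WSD/CD replicates 4 and 5 lay within the WSD/WSD range, and PKLR rose by 1.74 ± 0.41 (adjusted p = 0.00635). UGP2, which makes the UDP-glucose used for glycogen, rose by 1.68, glycogen synthase GYS2 by 1.38 and glycogen phosphorylase PYGL by 1.23. PCK1, the control enzyme of glucose production, had 452 to 1286 FPKM in WSD/WSD livers, against 403 to 1800 FPKM in WSD/CD livers, and did not pass (adjusted p = 0.735). Within series 30, 9 rose and 3 fell.

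Receptors and mediators of insulin and growth hormone were higher in 9 of 19 cases and lower in 0 (median 0.66), and 7 rose after scaling. FOXO1, the transcription factor that insulin keeps out of the nucleus, did not overlap between the groups. It had 13.1 to 17.5 FPKM (median 14.4) in WSD/WSD livers, against 2.45 to 12.8 FPKM (median 4.23) in WSD/CD livers, and rose by 1.35 ± 0.26 (adjusted p = 0.00503). The growth hormone receptor GHR had 24.5 to 54.7 FPKM (median 35.8) in WSD/WSD livers, against 4.02 to 41.1 FPKM (median 6.10) in WSD/CD livers. WSD/CD replicates 4 and 5 lay inside the WSD/WSD range and replicate 8 just below it. GHR rose by 1.91 ± 0.43 (adjusted p = 0.00584). The insulin receptor INSR rose by 1.45, FOXO3 by 1.21 and the catalytic PI3-kinase subunit PIK3CA by 0.50. Without the animals above 34000 the list's median was 0.32 and no member passed.

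Bile acid genes had one of the highest list medians, 0.97, and 0.73 after scaling. Of 15 members, all 15 had positive differences, 9 rose and 0 fell, and 7 rose after scaling. CYP7B1, the hydroxylase of the alternative synthesis route, had 20.6 to 40.0 FPKM (median 31.1) in WSD/WSD livers, against 4.07 to 36.6 FPKM (median 5.84) in WSD/CD livers, and rose by 1.63 ± 0.40 (adjusted p = 0.0079). ABCB11, the pump that exports bile salts into the canaliculus, rose by 1.39, the uptake carrier SLC10A1 by 1.58, and HSD3B7, an early enzyme of synthesis, by 1.19. NR0B2, the repressor of bile acid synthesis known as SHP, rose by 1.14 and its activator NR1H4, the bile acid receptor FXR, by 0.72. CYP7A1, the rate-limiting enzyme, did not pass, with 7.15 to 226 FPKM (median 9.78) in WSD/WSD livers, against 1.95 to 51.8 FPKM (median 11.8) in WSD/CD livers (adjusted p = 0.43). Within series 30, 10 members rose and 0 fell.

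Lipoprotein genes rose in 9 of 22 cases and fell in 0 (median 0.73), with 7 higher after scaling. MTTP, which loads lipid onto apolipoprotein B, had 11.5 to 22.3 FPKM (median 14.3) in WSD/WSD livers, against 1.73 to 15.7 FPKM (median 2.91) in WSD/CD livers, and rose by 1.71 ± 0.34 (adjusted p = 0.00503). APOB itself had 1107 to 1507 FPKM in WSD/WSD livers, against 211 to 1404 FPKM in WSD/CD livers, and rose by 1.21. The cholesterol exporter ABCA1 rose by 0.90, hepatic lipase LIPC by 0.81, and ABCG5 and ABCG8, partners in sterol secretion into bile, by 0.73 and 1.75. APOA1 (0.10) and APOE (0.14) did not pass. Within series 30, 9 rose and 1 fell.

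**Figure D4:**
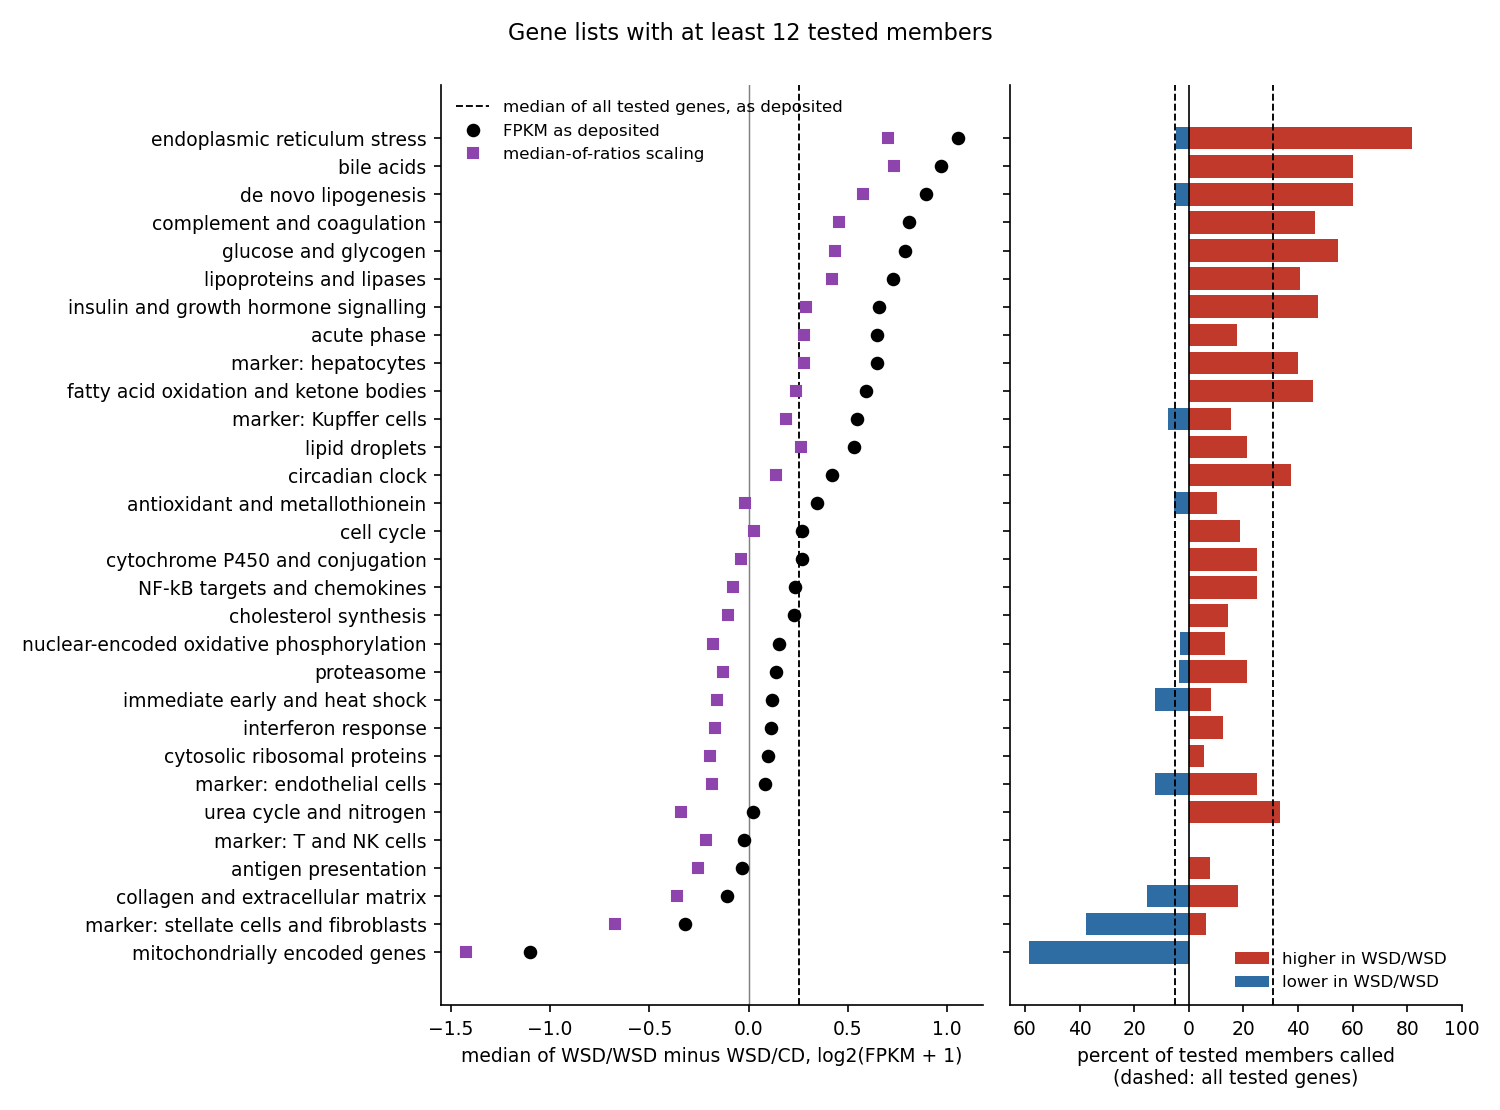
Gene lists with at least 12 tested members: list median of WSD/WSD minus WSD/CD on the log2(FPKM + 1) scale (left; black as deposited, purple after median-of-ratios scaling) and percent of members called (right; red higher and blue lower in WSD/WSD). Dashed lines mark all tested genes, with a median of 0.26, 30.8% higher and 4.89% lower; the endoplasmic reticulum list lies highest and the mitochondrially encoded genes lowest.

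Genes of the endoplasmic reticulum stress response, its chaperones, sensors and transcription factors, had the highest median of the lists with at least 12 tested members. Of 22 members, 18 rose and 1 fell, with a median of 1.05 against 0.26 for all genes, and after scaling 15 rose and 2 fell (median 0.70). DNAJC3, a co-chaperone that also inhibits the kinase PERK, did not overlap between the groups. It had 18.7 to 25.5 FPKM (median 20.1) in WSD/WSD livers, against 5.08 to 16.8 FPKM (median 9.14) in WSD/CD livers, and rose by 1.13 ± 0.20 (adjusted p = 0.00503). EIF2AK3, which encodes PERK, had 4.36 to 7.83 FPKM in WSD/WSD livers, against 0.879 to 6.80 FPKM in WSD/CD livers, and rose by 1.29 ± 0.25 (adjusted p = 0.00503). The secreted factor MANF rose by 1.28, the chaperone HYOU1 by 1.52, the sensor kinase ERN1 and its target XBP1 by 1.58 each, and the central chaperone HSPA5 by 0.98.

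Some members of the list had negative differences. DDIT3, which encodes the transcription factor CHOP, had 25.999 to 53.7 FPKM (median 38.4) in WSD/WSD livers, against 40.0 to 99.4 FPKM (median 51.2) in WSD/CD livers, and fell by 0.61 (adjusted p = 0.0234). ATF4, the activator of DDIT3, and its target CHAC1 had differences of -0.42 and -0.62 and did not pass. In the WSD/WSD livers the median level of the list lay between 0.61 and 1.34 above the genes' means over the WSD/CD livers. The WSD/CD livers, centred near 0 by construction, ran from -0.73 to 0.83, with replicates 4, 8 and 1 highest. Within series 30, 12 rose and 4 fell, and without the animals above 34000 the list's median was 0.77 with no member passing.

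Of 26 complement and coagulation genes, many of them plasma proteins made by hepatocytes, 12 rose and 0 fell (median 0.81). After scaling 5 rose, where 15.1% of all genes did, and within series 30 11 rose and 0 fell. C6, of the membrane attack complex, had 136 to 227 FPKM (median 204) in WSD/WSD livers, against 25.95 to 225 FPKM (median 51.2) in WSD/CD livers, and rose by 1.61 ± 0.41 (adjusted p = 0.00882). Plasminogen (PLG) had 1397 to 2058 FPKM in WSD/WSD livers, against 134 to 2082 FPKM in WSD/CD livers, and rose by 1.70. Coagulation factor V (F5) rose by 1.56 and complement C5 by 1.39. The groups overlapped, since WSD/CD replicates 4, 5 and 8 had C6 and PLG levels within or at the edge of the WSD/WSD range. Of 17 acute phase genes, 3 rose and 0 fell, a smaller share than the 30.8% of all genes: the fibrinogen chains FGA (1.67) and FGG (1.10) and ceruloplasmin, CP (1.39). CRP (0.85) and SAA1 (-1.49) did not pass. After scaling only FGA of these was called, within series 30 no member rose and 1 fell (median 0.10), and the median was 0.01 without the animals above 34000.

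Hepatocyte markers were also called higher in part. Of 15 tested, 6 rose and 0 fell, with a median of 0.65 and 0.28 after scaling, where 6 rose too. AHSG, which encodes fetuin-A, had 356 to 591 FPKM (median 517) in WSD/WSD livers, against 38.9 to 452 FPKM (median 188) in WSD/CD livers, and rose by 1.65 ± 0.42 (adjusted p = 0.00892). HNF4A, the transcription factor of hepatocyte identity, rose by 0.91. The list's level was 0.56 to 0.85 above the genes' WSD/CD means in WSD/WSD livers. It was -1.26 to 0.78 in WSD/CD livers, with replicates 6, 9 and 7 lowest. The part of hepatocyte content in the metabolic and secretory differences was not tested.

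The medians of these metabolic and secretory lists were smaller with the mitochondrial share as a covariate, a fit that also takes out any diet difference running along with that share, and no member of any list was called there. The list median was then 0.49 for the endoplasmic reticulum stress list, 0.42 for lipid synthesis, 0.39 for bile acids, 0.28 for glucose and glycogen, and 0.21 each for lipoproteins and for insulin and growth hormone signalling, beside 0.09 for all genes. It was 0.10 for fatty acid oxidation, 0.02 for complement and coagulation, where 13 of 26 members stayed positive, 0.04 for hepatocyte markers and -0.19 for acute phase genes. Without the animals above 34000 no list member was called either, and the median was 0.62 for bile acids, 0.45 for glucose and glycogen, 0.36 for fatty acid oxidation, 0.30 for complement and coagulation, and 0.27 each for lipoproteins and hepatocyte markers, beside 0.15 for all genes.

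Nuclear-encoded subunits of the respiratory chain had no common direction. Of 60 tested, 8 rose and 2 fell with a median of 0.15, and after scaling 2 rose and 12 fell with a median of -0.18. NDUFS1, the largest subunit of complex I, rose by 1.36 (adjusted p = 0.00647) and the ATP synthase alpha subunit ATP5F1A by 1.12. ATP5PF, a subunit of the ATP synthase stalk, had 164 to 302 FPKM (median 176) in WSD/WSD livers, against 251 to 558 FPKM (median 301) in WSD/CD livers, and fell by 0.67 (adjusted p = 0.0149). Cytosolic ribosomal proteins had 2 of 37 members higher and 0 lower, and after scaling 0 higher and 7 lower. Proteasome subunits had 6 of 28 higher and 1 lower, and after scaling 0 higher and 5 lower, so their direction rests on the scale.

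Of 18 urea cycle and amino acid genes, 6 rose and 0 fell, close to the 30.8% of all genes higher, and the median was 0.02, below that of all genes. TDO2, which opens tryptophan breakdown, had 67.7 to 126 FPKM (median 99.6) in WSD/WSD livers, against 12.8 to 93.1 FPKM (median 24.8) in WSD/CD livers, and rose by 1.53 ± 0.39 (adjusted p = 0.00895). CPS1, the entry enzyme of the urea cycle, rose by 1.33, the tyrosine enzymes TAT and FAH by 1.42 and 0.72, while ARG1 (-0.12) and ASS1 (-0.30) did not pass. FAH was not called after scaling. Of 12 cytochrome P450 and conjugation genes, 3 rose and 0 fell, a smaller share than the 30.8% of all genes. Those 3 were NR1I2, the xenobiotic receptor PXR (1.42), CYP2C19 (1.88) and the bilirubin-conjugating enzyme UGT1A1 (1.46). Only NR1I2 was called after scaling, where the list's median turned to -0.04. CYP2C19, whose close copies can share its reads, differed by 0.48 within series 30 (adjusted p = 0.626) and by 0.82 without the animals above 34000, where UGT1A1 differed by 0.63.

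Of 16 clock genes, 6 rose and 0 fell (median 0.42), beside 30.8% of all genes higher, and after scaling 4 rose and 1 fell. The median was 0.24 without the animals above 34000 and 0.08 with the mitochondrial share as a covariate. The repressor CRY2 had 15.4 to 39.8 FPKM (median 23.8) in WSD/WSD livers, against 2.33 to 19.4 FPKM (median 8.25) in WSD/CD livers, and rose by 1.51 ± 0.35 (adjusted p = 0.00627). The output factor HLF rose by 1.14, NR1D2, which encodes REV-ERB-beta, by 1.27 and RORA by 1.16. The hour of tissue collection is not given in the labels used here. Of 24 immediate early and heat shock genes, 2 rose and 3 fell. The chaperones HSP90AA1 (1.14) and HSPA8 (0.85) rose, though HSPA8 was not called after scaling, while NR4A1, IER3 and MYC fell by 0.93, 0.64 and 1.13. Within series 30, 1 of these genes rose and 8 fell. The list's level was 0.94 and 1.21 above the genes' WSD/CD means in the 2 WSD/CD livers of that series, the highest of all 17. Of 19 antioxidant and metallothionein genes, 2 rose, TXNRD1 (0.83) and GCLM (0.86), and 1 fell, MT1E. Among 16 cell cycle genes 3 rose, including the inhibitor CDKN1A (1.52, adjusted p = 0.0087), and 0 fell.

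Genes of stellate cells, the collagen-producing cells of the liver, leaned the other way from hepatocyte genes. Of 16 markers, 1 rose and 6 fell (median -0.32), and after scaling 1 rose and 8 fell. PDGFRB, the receptor that marks these cells, had 1.64 to 2.13 FPKM (median 1.84) in WSD/WSD livers, against 1.44 to 6.78 FPKM (median 3.80) in WSD/CD livers, and fell by 0.73 ± 0.20 (adjusted p = 0.0128). TAGLN, an actin-binding protein of contractile cells, fell by 1.06, CYGB, a stellate cell globin, by 0.75 and COL1A1 by 0.62. RELN rose by 1.36. Within series 30, 2 rose and 2 fell, and without the animals above 34000 the median was -0.07 with no member passing, and with the mitochondrial share as a covariate it was 0.03. The summed level of the list was 125 to 206 FPKM in WSD/WSD livers, against 155 to 350 FPKM in WSD/CD livers.

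Matrix genes were called in both directions. Of 33, 6 rose and 5 fell (median -0.11), and after scaling 5 rose and 12 fell. Those that rose were the metalloproteinase inhibitors TIMP3 (0.83) and TIMP2 (0.83), the basement membrane genes LAMC1 (0.71) and COL4A1 (1.08), fibronectin, FN1 (1.55), and LOX (0.34). Those that fell were COL6A2 (-0.78), COL6A1 (-0.73), LUM (-0.76), BGN (-0.72) and COL1A1 (-0.62). Hepatocytes also make FN1, which had 378 to 599 FPKM in WSD/WSD livers, against 38.7 to 494 FPKM in WSD/CD livers. COL1A1 was low in both groups, with 0.4657 to 2.11 FPKM in WSD/WSD livers, against 0.440 to 5.05 FPKM in WSD/CD livers. Within series 30 the counts were 8 higher and 2 lower, and without series 31 they were 7 and 0.

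Several endothelial, macrophage and basement membrane genes split the WSD/WSD group by number series. PECAM1, an adhesion molecule of endothelium, had 30.4 to 36.6 FPKM in the 5 WSD/WSD livers of series 30 but 7.75 and 8.20 FPKM in the 2 of series 31, against 7.18 to 18.1 FPKM in WSD/CD livers. MSR1, a scavenger receptor of macrophages, likewise had 7.38 to 8.55 FPKM in the series 30 WSD/WSD livers and 0.895 and 1.14 FPKM in those of series 31, against 1.58 to 4.45 FPKM in WSD/CD livers. In both genes the series 31 livers lay near or below the low end of the WSD/CD range. The VEGF receptor FLT1 had 5.02 to 7.32 FPKM in the series 30 WSD/WSD livers and 0.836 and 0.680 FPKM in those of series 31, against 0.545 to 2.25 FPKM in WSD/CD livers. COL4A1 had 12.03 to 15.2 FPKM in WSD/WSD livers of series 30 and 4.80 and 3.10 FPKM in those of series 31, against 2.23 to 7.001 FPKM in WSD/CD livers. Over all animals PECAM1 differed by 0.98 (adjusted p = 0.0209), MSR1 by 0.88 (adjusted p = 0.0463), FLT1 by 1.08 (adjusted p = 0.011) and COL4A1 by 1.08 (adjusted p = 0.00736). After scaling, PECAM1 and MSR1 were not called. The Kupffer cell list as a whole lay 0.86 to 1.21 above its genes' WSD/CD means in the 5 WSD/WSD livers of series 30. On the same scale it lay at -0.77 and -0.59 in the 2 of series 31, and between -0.50 and 0.85 in WSD/CD livers. The endothelial list did not stand clear in this way. It lay at 0.24 to 0.53 in the series 30 WSD/WSD livers, -0.73 and -0.51 in those of series 31, and -0.69 to 0.44 in WSD/CD livers. Of its 16 tested markers 8 had positive differences over all animals and 9 within series 30, so PECAM1 and FLT1 do not stand for the list.

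**Figure D5:**
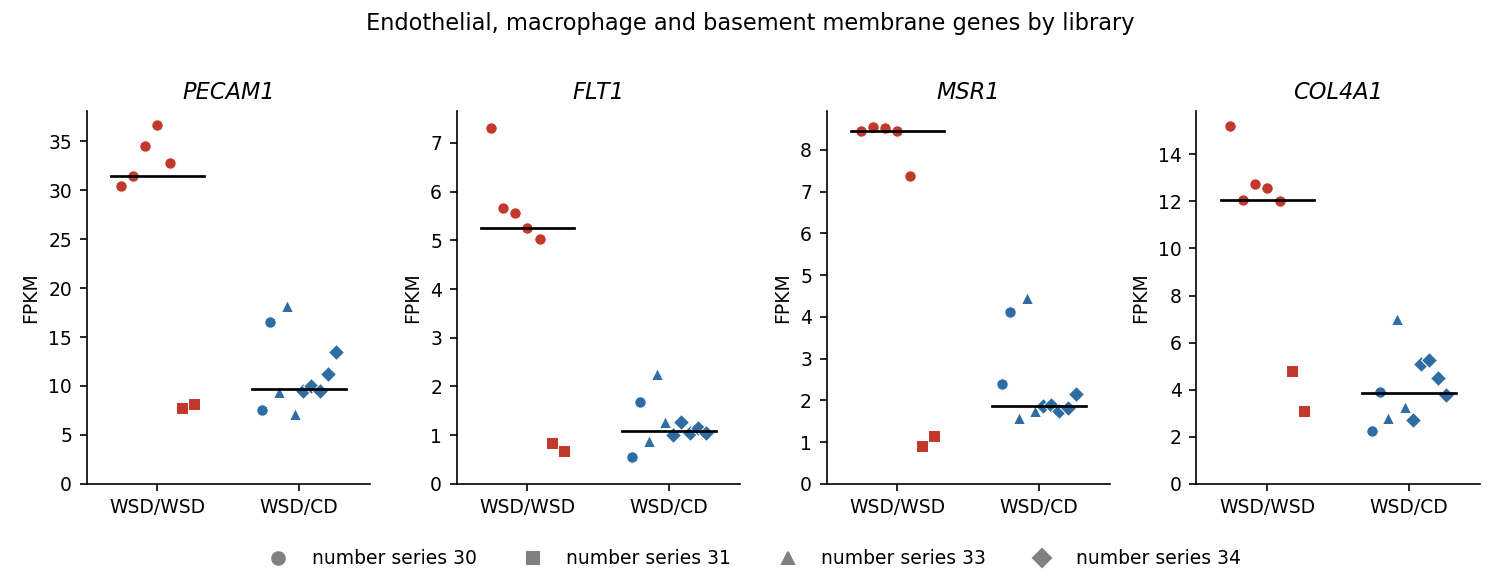
FPKM of PECAM1 and FLT1 (endothelium), MSR1 (macrophages) and COL4A1 (basement membrane) in WSD/WSD (red) and WSD/CD (blue) livers, 1 point per library, with point shapes for the number series and a line at the group median. The 5 WSD/WSD livers of series 30 stand above all others, and the 2 of series 31 lie among or below the WSD/CD livers.

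Counts for the endothelial and Kupffer cell lists depended on the 2 WSD/WSD livers of series 31. Of 16 endothelial markers, 4 rose and 2 fell (median 0.08), beside 30.8% and 4.89% of all genes. After scaling 1 rose and 2 fell. Without series 31, 7 rose and 0 fell (median 0.37), and within series 30 5 rose and 0 fell. RSPO3, a Wnt enhancer made by central vein endothelium, fell by 0.81 (adjusted p = 0.0209). Of 13 Kupffer cell markers, 2 rose (MSR1 and CSF1R, 0.95) and 1 fell (median 0.54), and after scaling 0 rose and 1 fell. Without series 31, 10 rose and 0 fell (median 1.01), and within series 30 6 rose and 3 fell. The one that fell over all animals, VSIG4, a complement receptor of resident macrophages, had 18.9 to 53.7 FPKM (median 30.96) in WSD/WSD livers, against 30.8 to 188 FPKM (median 59.1) in WSD/CD livers, a difference of -0.98 ± 0.33 (adjusted p = 0.0276). Of 8 bile duct markers, 2 fell, SPP1 among them, and none rose. SPP1, which encodes osteopontin, had 0.678 to 1.28 FPKM in WSD/WSD livers, against 1.47 to 6.37 FPKM in WSD/CD livers, with no overlap and a difference of -0.71 ± 0.19 (adjusted p = 0.00996). None of 14 T and NK cell markers passed, the nearest being CD4 (0.54, adjusted p = 0.129) and TRAC (-0.42, adjusted p = 0.152). None of 3 B and plasma cell markers passed, nor did any of 3 adipocyte markers, among them FABP4 (0.84, adjusted p = 0.0828). The neutrophil receptor CXCR2 rose by 0.74, as did 1 gut marker, VIL1, by 0.68, both at low levels and neither called after scaling.

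The interferon and antigen presentation lists had a smaller share of higher calls than all genes (30.8%). The NF-kB list was near that share, and near the 15.1% of all genes after scaling. Of 24 interferon response genes 3 rose and 0 fell, among them the RNA sensor DDX58 (0.51) and IFIT5 (0.66), and none of the 3 was called after scaling. Of 12 NF-kB targets and chemokines 3 rose and 0 fell, namely the receptor TLR2 (0.93), the inhibitor TNFAIP3 (0.67) and the adhesion molecule VCAM1 (0.65), of which VCAM1 was not called after scaling. Of 13 antigen presentation genes only MAMU-E rose (0.82), and it has close copies among the MHC class I genes. Of 7 fetal liver genes, PEG3 rose by 0.64 and DLK1, a Notch-like protein of fetal hepatoblasts, fell by 1.21, with 3.92 to 10.2 FPKM in WSD/WSD livers, against 8.05 to 69.2 FPKM in WSD/CD livers.

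Whether the postweaning diet acted differently after a maternal western diet was tested as the difference between the WSD/WSD minus WSD/CD and the CD/WSD minus CD/CD contrasts over 33 libraries. None of 12522 genes was called (0.0%; smallest adjusted p = 0.209 in limma), while 2463 had an unadjusted p under 0.05. The 5 genes nearest to the threshold were YIF1A, of transport from the endoplasmic reticulum, the growth factor PTN, the RNA ligase RTCB, NFATC2IP and DPCD. YIF1A had a difference of 1.01 after a maternal western diet and -0.27 after a maternal control diet, and PTN had -0.79 and 0.68. In offspring of control-fed mothers 3 genes were called (0.024%), with 1789 at an unadjusted p under 0.05. That fit took its spread from all 33 libraries, unlike the fit of 17 libraries above. With the spread of all 33 libraries, WSD/WSD against WSD/CD had 5519 genes called. Of the 3863 genes higher in WSD/WSD than in WSD/CD livers, 3419 had a positive difference in offspring of control-fed mothers. This compares with 6761 of all 12522 genes. Of the 612 lower genes, 548 had a negative difference there. PPP1R3B differed there by 1.74, SCD by 1.64, FOXO1 by 0.81 and CYTB by -0.26, none of which passed. All 12 of the largest increases were positive there and 11 of the 12 largest decreases negative. Number series and diet go together in part in offspring of control-fed mothers too, since their highest series held only CD/CD animals. In their lowest series the CD/WSD animals again have the lower numbers. Whether the shared direction follows diet or number series was not tested. Many genes also move together across libraries, so these counts are not separate agreements.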

How the data were processed

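Total RNA was taken with the RNeasy Mini kit of Qiagen, made into directional mRNA libraries (Swift) and read in pairs on a NovaSeq instrument, per the labels' protocols. GSNAP, SAMtools and Cufflinks stand in the submitters' processing notes. The genome build is not given in the sources used here. Values are FPKM, which the authors deposited as 1 table for 34882 genes, with columns matched here to samples by animal number. FPKM gives no counts, so depth is unknown. A ratio from the lowest values gave a rough relative depth of 0.956 to 1.82 for WSD/WSD and 0.756 to 1.59 for WSD/CD libraries. The value 999999999 was treated as missing: 14 genes had it in the 17 libraries, ALB in 15 of them, and were not tested.

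Genes with a mean of at least 0.5 FPKM over the 17 libraries went into limma 3.58.1 on the log2(FPKM + 1) scale (R 4.3.3; trend, 2 groups, 15 residual degrees of freedom, Benjamini-Hochberg adjustment, threshold 0.05). The method was tested on simulated data with independent noise for each gene. Such data lack the variation that genes share across these libraries, so that test does not bear on the count of calls. The mitochondrial share was tested by exact permutation (SciPy 1.17.1). Named are the 12 largest increases and decreases among called genes with a symbol of their own and at least 1 FPKM in the higher group, up to 4 called members (or 2 uncalled) of each of 37 gene lists, the 5 smallest p-values of the difference between maternal diets, and genes said to be chosen otherwise, with further list members given as values. Some genes that the rule picks are not reported here. The comparison and the lists were chosen with earlier results of these data known. Symbols came from the table, and 360 from a table of gene identifiers. Alternatives changed the pseudocount, filter, scaling, weights, covariates and animals. Pairwise correlations of libraries ran between 0.926 and 0.990, so none was a duplicate.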

Additional observations from a re-analysis of the deposited data

Results flagged for a closer look

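In 270 groups of values examined, 1 library stood apart from the rest of its group in 13 cases, and chance gives about 1 in 20 groups. WSD/WSD replicate 5 was highest in ELOVL2 (44.2 FPKM), FOXO1 (17.5 FPKM) and APOB (1507 FPKM), and WSD/WSD replicate 7 was highest in ANKRD24 (14.2 FPKM) and LIPC (11.1 FPKM). WSD/WSD replicate 6 was lowest in PCSK6 (76.4 FPKM), HSPA8 (643 FPKM) and C6 (136 FPKM). ABCA1 was highest in WSD/WSD replicate 3 (3.10 FPKM) and FN1 in WSD/WSD replicate 1 (599 FPKM). WSD/CD replicate 8 was highest in LIPG (9.19 FPKM) and ACADVL (36.5 FPKM), and WSD/CD replicate 2 in SPP1 (6.37 FPKM).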

How the results depend on the processing

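The count of called genes (4475; 3863 higher and 612 lower) lay within 1.5 times its value with a pseudocount of 0.1, no filter, a mean of at least 1 FPKM, all 33 libraries, robust empirical Bayes, a Y-linked covariate, or without series 31. Higher and lower calls numbered 1886 and 1744 after median-of-ratios scaling, and 2014 and 1890 after quantile normalization. Sample weights gave 1308 lower, series 30 alone 992 and number series as a factor 1280. Without animals above 34000 the counts were 2 in all, 2 higher and 0 lower; with the mitochondrial share as covariate 7, 5 and 2; and with series 31 and 34 left out, an alternative chosen after seeing the data, 773, 721 and 52. Leaving out 1 library at a time gave 3290 (without WSD/WSD replicate 5) to 5263 (without WSD/CD replicate 4), and 403 to 848 lower. The share difference of -5.31 points missed the threshold without animals above 34000 (-1.85, exact permutation p = 0.0631) and in series 30 (-3.29, p = 0.0952). The interaction count stayed 0 in all 4 alternatives. No named gene that was called reversed, in fits that reuse the same libraries. The causes were not tested. No paired analysis was possible because the labels give no replicate numbers that groups share. Depth is unknown, and genes near 1 FPKM are least precise.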

Other observations

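Of the 65 genes higher in WSD/WSD livers without overlap between the groups, 5 are given here. They were picked after their values were seen, and no test was made of what they share. SEC61A1, the channel through which proteins enter, had 36.5 to 74.6 FPKM (median 50.4) in WSD/WSD livers, against 6.71 to 34.1 FPKM (median 16.2) in WSD/CD livers, a difference of 1.66 ± 0.30 (limma, adjusted p = 0.00503). TRAM1, which assists that channel, had 61.2 to 81.6 FPKM in WSD/WSD livers, against 14.4 to 59.4 FPKM in WSD/CD livers. The signal peptidase subunit SPCS3 had 20.4 to 29.8 FPKM in WSD/WSD livers, against 5.32 to 19.9 FPKM in WSD/CD livers. KDELR2, a receptor that returns chaperones to the endoplasmic reticulum, had 20.03 to 43.7 FPKM in WSD/WSD livers, against 4.40 to 19.1 FPKM in WSD/CD livers. MCFD2, a cargo adaptor for coagulation factors, had 116 to 155 FPKM in WSD/WSD livers, against 21.2 to 111 FPKM in WSD/CD livers. Each gap between the groups was narrow next to the spread of the WSD/CD livers, and none of these genes was called without the animals numbered above 34000, where SEC61A1 differed by 1.27 (adjusted p = 0.0958).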
